A study of Homo sapiens with 36 samples.

Results

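The response of 2 lung cancer cell lines to MinE07, an RNA aptamer that binds the epidermal growth factor receptor (EGFR), was compared gene by gene. The lines were H1975, which carries EGFR with L858R and T790M, and H820, which carries EGFR with an exon 19 deletion and T790M. Aptamers are short nucleic acids selected to fold into a shape that recognises a target, and C36, given in an extended form, was the control aptamer. Of the 36 RNA sequencing libraries of the study, 12 made up the comparison: 3 libraries of each line treated with MinE07 and 3 of each line treated with C36, chosen by their titles. Both lines received 3 µM aptamer for 24 h in RPMI with 1% serum. A further 6 libraries of these lines received the vehicle, DPBS with magnesium. MinE07 and C36 libraries of H3255 (EGFR with L858R) and of A549 (wild-type EGFR) supplied values from cells outside the comparison. The study describes its libraries as biologically independent experiments. Each genotype is represented by 1 line, so the EGFR genotype and every other difference between H1975 and H820 cannot be told apart.

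EGFR is a receptor tyrosine kinase that signals through the RAS-RAF-MEK-ERK cascade and through PI3K and AKT. ERK activity induces immediate early genes such as EGR1, the transcription factors ETV4 and ETV5, the D-type cyclin CCND1, and negative feedback genes of the DUSP, SPRY and SPRED families. AKT keeps FOXO transcription factors out of the nucleus, and FOXO target genes are induced when AKT signalling falls. L858R and exon 19 deletions activate the kinase in lung adenocarcinoma, and T790M is the gatekeeper change known for resistance to early EGFR kinase inhibitors.

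Expression is given as FPKM, mapped fragments scaled by transcript length and by the library's total, and changes are on the scale of log2(FPKM + 0.5). "Difference" means the MinE07 minus C36 change in H1975 minus the same change in H820, and a gene is called where the limma p-value, adjusted over all genes tested, is under 0.05. Genes had to average at least 1 FPKM in each line and be above 0 in all 12 libraries. Summed FPKM ran from 362928 to 434996 over the 18 libraries of the lines, and relative sequencing depth, estimated from the steps between low values, from 0.798 to 1.314. H820 MinE07 libraries 1 and 2 stood apart most: 7 of 15 mitochondrially encoded genes were listed at 0 in each, against 3 in every other H820 library and in H1975 C36 library 1, and 0 in the other H1975 libraries. Mitochondrial transcripts made up 11.8% of summed FPKM in those 2 libraries and 19.7 to 21.7% in the other H820 libraries. H1975 C36 library 1 also stood apart, at 13.4% against 20.2 to 22.5% in the other H1975 libraries. Results are also given without the 2 H820 libraries where leaving both out ended a call or moved a count by over 1.5 times. Summed epithelial markers (EPCAM, KRT8, KRT18, KRT19, CDH1) ran from 1207 to 1545 FPKM over all 18 libraries, the lung lineage factor NKX2-1 was present in both lines, and PTPRC, CD3E and the endothelial markers were near 0. The 5 fibroblast markers summed to 12.1 to 13.8 FPKM in the H1975 C36 libraries and 16.1 to 17.1 FPKM in the H1975 MinE07 libraries, and to at most 1.25 FPKM in those H820 libraries. Their part in the results was not tested.

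The responses of the 2 lines differed at 1110 of 12553 genes (8.84%). H1975 changed broadly under MinE07, with 3323 genes called (26.5%): 1484 rose (11.8%) and 1839 fell (14.6%). H820 had 7 genes called (0.0558%), with 4 higher (0.0319%) and 3 lower (0.0239%), although 1349 genes (10.7%) had an unadjusted limma p under 0.05 there. Library-to-library spread was alike in the lines, with a median SD within groups of 0.053 in H1975 and 0.052 in H820, while the median absolute change was 0.081 in H1975 and 0.042 in H820. MinE07 libraries lay wholly above the C36 libraries at 18.5% of genes in H1975 and 10.1% in H820, and wholly below at 22.8% and 7.07%, so they did not overlap at 41.4% and 17.2%. The plot of changes by line shows the called genes stretched along the H1975 axis.

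**Figure D1:**
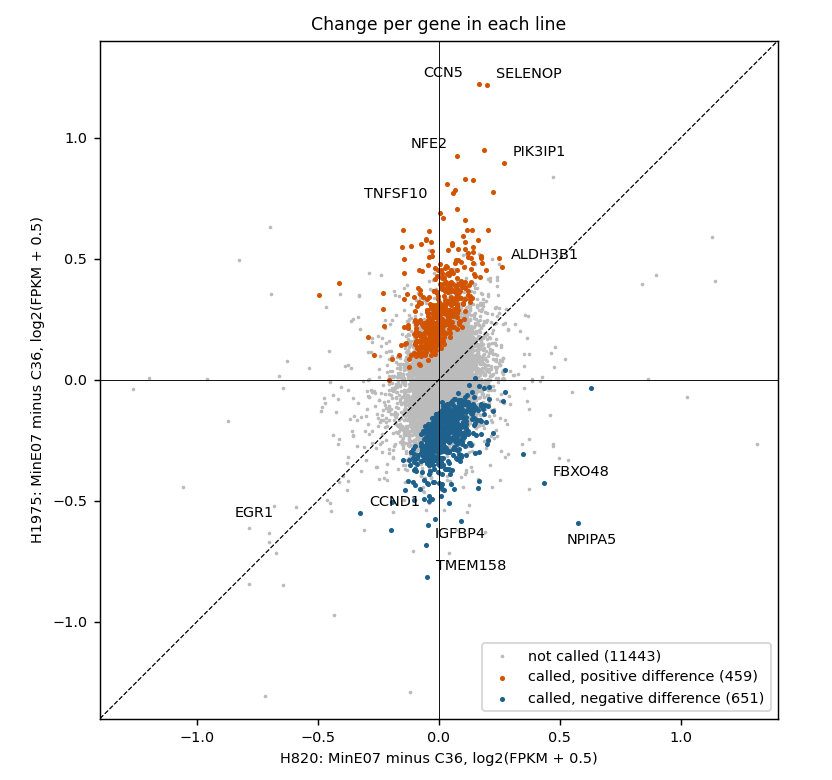
Change under MinE07 against C36 in H820 (horizontal axis) and in H1975 (vertical axis), log2(FPKM + 0.5), 1 point per gene, with the dashed line marking equal changes. Grey points are 11443 genes not called for the difference, orange points 459 called higher in H1975 relative to H820, and blue points 651 called lower. Called points lie away from the dashed line and mostly spread vertically.

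The difference was positive at 459 called genes (3.66%) and negative at 651 (5.19%), so 41.4% of called genes were positive. That split depended on scaling: it was 554 positive and 478 negative after rescaling by medians of ratios, 593 and 481 after quantile normalization, and 472 and 413 after mitochondrial genes were left out and sums made equal. The median difference of all genes was -0.02. Of the 1110 genes, 1050 had the larger absolute change in H1975. The differences were small in size, with a median of 0.25, and 51 genes reached 0.5, 38 of them positive. Leaving out H820 MinE07 libraries 1 and 2 gave 729 called genes, leaving out H1975 C36 library 1 gave 758, and leaving out single libraries gave 598 to 1353. Genes that moved in H1975 showed only slight movement in H820. Among genes that rose in H1975 the median change was 0.19 in H1975 and 0.03 in H820, where 69.1% lay above 0 against 53.4% of all genes. Among genes that fell in H1975 the medians were -0.17 and -0.02, with 37.9% above 0 in H820.

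ERK target genes fell in H1975, and several of them fell further there than in H820. Others, including EGR1 and ETV5, had no called difference between the lines. In a list of 24 EGFR-MAPK output genes, 13 were expressed highly enough in both lines to be tested, and 5 had a called negative difference (CCND1, MYC, EPHA2, IER2 and IER3) and 0 a positive one, against 5.19% and 3.66% of all genes. Within H1975, 11 of the 13 were called lower, against 14.6% of all genes. Within H820, EGR1 and CCND1 were called lower, against 0.0239% of all genes. The median over the 13 was -0.33 in H1975, -0.11 in H820 and -0.15 for the difference. With H820 MinE07 libraries 1 and 2 left out, 1 library remained in that group and the median difference was -0.20. The members called there were not all the same.

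CCND1, the cyclin that starts the G1 phase kinase programme, was at 67.4, 68.8 and 66.8 FPKM in the H1975 C36 libraries and at 46.3, 46.5 and 45.3 FPKM under MinE07. In H820 it was at 9.44, 9.84 and 9.09 FPKM with C36 and at 7.08, 7.78 and 7.48 FPKM with MinE07. Treated and control libraries did not overlap in either line. CCND1 fell by 0.55 in H1975 and by 0.33 in H820, a difference of -0.23 ± 0.05 (SE, limma adjusted p = 0.019). Without H1975 C36 library 2 it was -0.21 (adjusted p = 0.0503). Against vehicle CCND1 changed by -0.41 in H1975 and -0.05 in H820, where C36 against vehicle gave 0.28.

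MYC, the transcription factor that drives growth genes, fell in H1975 and overlapped its C36 libraries in H820. H1975 libraries were at 83.5, 89.6 and 83.8 FPKM with C36 and 67.9, 71.8 and 65.1 FPKM with MinE07. H820 libraries were at 92.5, 97.3 and 90.3 FPKM with C36 and 89.9, 98.5 and 92.9 FPKM with MinE07. The difference was -0.33 ± 0.06 (limma adjusted p = 0.0102). EPHA2, an ephrin receptor induced by ERK signalling, changed by -0.33 in H1975 and -0.10 in H820 (difference -0.23, limma adjusted p = 0.0196, and -0.22 with 0.05004 without H1975 C36 library 2). The immediate early genes IER2 and IER3 had differences of -0.21 and -0.23. IER2 was not called without H1975 MinE07 library 3 (-0.20) or H820 C36 library 1 (-0.19), and against vehicle its difference was -0.01 (limma adjusted p = 0.93), with 0.16 for C36 against vehicle in H1975. IER3, which has a second entry in the files, was called under 9 of 27 alternative settings, and not without H820 MinE07 libraries 1 and 2.

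EGR1, an immediate early zinc finger factor, fell in both lines with no called difference between them. It stood at 11.0, 11.0 and 10.9 FPKM with C36 and 6.49, 7.32 and 7.16 FPKM with MinE07 in H1975. In H820 it stood at 2.30, 2.42 and 2.31 FPKM with C36 and 1.01, 1.27 and 1.18 FPKM with MinE07. The libraries separated by treatment in both lines, and EGR1 fell by 0.61 in H1975 and by 0.78 in H820. The difference of 0.17 was not called (95% interval -0.01 to 0.35, limma adjusted p = 0.222). Against vehicle the values were not alike: EGR1 changed by -0.21 in H1975 and -0.84 in H820. That difference of 0.62 was called (limma adjusted p = 0.00155). C36 against vehicle gave 0.40 in H1975 and -0.05 in H820.

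The EGR1 promoter is shown because EGR1 is the member of the list that fell most in H820, and because serum response factor sites, named CArG boxes, are known for driving immediate early genes. The stretch lies upstream of the gene start at chr5:138465344-138465435 on the plus strand (RefSeq, GRCh38.p14), printed 5′ to 3′ with CArG boxes in capitals.
EGR1: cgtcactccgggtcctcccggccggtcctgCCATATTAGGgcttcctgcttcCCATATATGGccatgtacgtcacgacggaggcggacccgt
A CArG box on either strand was found in the 300-base windows around the start of 1.29% of all 27305 promoters in the table, and among the 7 list members with a matched promoter in EGR1 alone. AP-1 sites, TGANTCA on either strand, were in 7.76% of all promoters and in 0 of those 7. These are letter matches and not measured binding.

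Among tested feedback regulators and ETS factors, ETV5 and DUSP5 fell in H1975 and had fitted falls in H820, with no called difference. ETV5 was at 9.27, 9.29 and 9.00 FPKM with C36 and 6.72, 6.50 and 6.47 FPKM with MinE07 in H1975. In H820 ETV5 was at 1.89, 1.59 and 1.82 FPKM with C36 and 1.17, 1.41 and 1.15 FPKM with MinE07. Libraries separated in both lines, but the H820 change of -0.38 was not called (limma adjusted p = 0.0563), and the difference was -0.08 (95% interval -0.26 to 0.11). DUSP5, a nuclear ERK phosphatase, changed by -0.38 in H1975 and -0.32 in H820, with a difference of -0.05 (95% interval -0.23 to 0.12). The RAS pathway inhibitors SPRED1, SPRED2 and SPRY2 had differences between -0.03 and 0.05. FOSL1, the AP-1 subunit, had a difference of -0.36 with a limma adjusted p of 0.0998, and PHLDA1 one of -0.15 with 0.101.

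Several feedback genes of the list could not be compared because they averaged under 1 FPKM in H820. DUSP6, the cytoplasmic ERK phosphatase, averaged 4.43 FPKM with MinE07 and 6.76 FPKM with C36 in H1975, and at most 0.10 FPKM in any H820 group. DUSP4 averaged 8.48 and 10.3 FPKM in H1975 and 0.02 and 0.03 FPKM in H820. SPRY4 averaged 1.46 and 2.61 FPKM in H1975 and 0.06 and 0.08 FPKM in H820. EPHA4, an ephrin receptor, was the reverse, at 0.70 FPKM in H1975 and 4.21 FPKM in H820 with C36. SPRED3, EGR2 and EGR3 averaged under 1 FPKM in both lines, so the 13 tested are not the whole list.

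**Figure D2:**
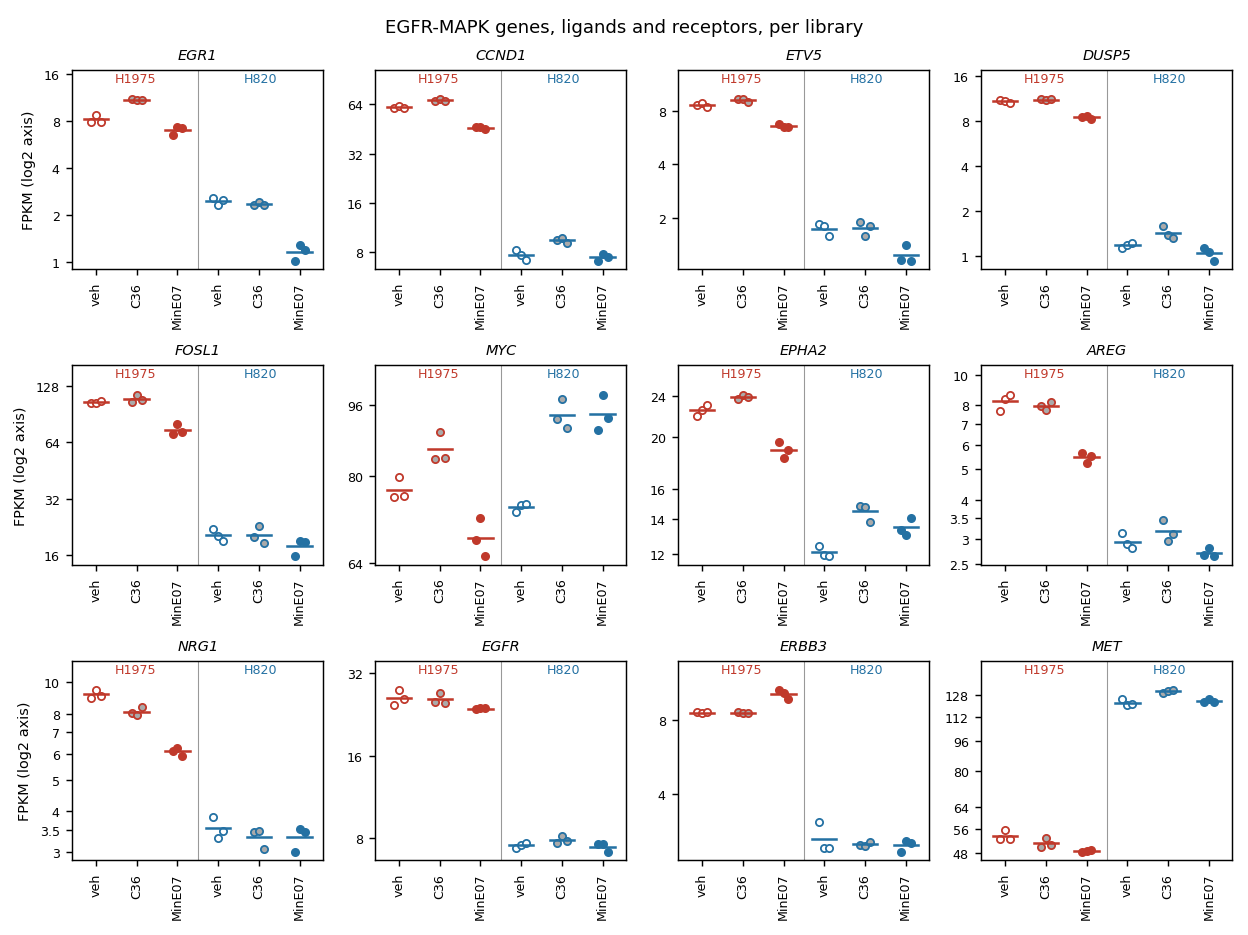
FPKM (log2 axis) of 12 EGFR pathway genes in every library of H1975 (red) and H820 (blue) with vehicle (open points), C36 (grey) and MinE07 (filled), with a line at each group's mean. EGR1 and CCND1 fell in both lines, MYC, NRG1 and AREG separate from C36 by more in H1975, and EGFR and MET show changes of like size in both lines.

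Of 12 tested EGFR ligand and feedback genes, 3 had a called negative difference (beside 5.19% of all genes) and 0 a positive one, all 3 of them ligands. AREG (amphiregulin, an EGFR ligand) fell in H1975 from 7.94, 7.76 and 8.18 FPKM with C36 to 5.64, 5.23 and 5.52 FPKM with MinE07. In H820 AREG was at 3.44, 2.95 and 3.10 FPKM with C36 and 2.66, 2.80 and 2.63 FPKM with MinE07, separate from each other but not called. Its difference was -0.31 (limma adjusted p = 0.0194), or -0.29 and not called without H820 MinE07 library 2 (adjusted p = 0.0519). NRG1 (neuregulin, a ligand of ERBB3 and ERBB4) averaged 6.11 FPKM with MinE07 and 8.11 FPKM with C36 in H1975 against 3.32 and 3.33 FPKM in H820, a difference of -0.38 (limma adjusted p = 0.0165). EREG (epiregulin) averaged 7.42 and 9.09 FPKM in H1975 and 49.5 and 52.0 FPKM in H820, with a difference of -0.21 (limma adjusted p = 0.037). With H820 MinE07 libraries 1 and 2 left out, only NRG1 of the 3 ligands was called, and AREG and EREG were not. The ligand TGFA was not tested: it averaged 10.4 FPKM with MinE07 and 11.6 FPKM with C36 in H1975 and under 1 FPKM in H820.

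Of 11 tested ERBB and bypass receptor genes ERBB3 was called for the difference, a share of 9.09% beside 8.84% of all genes. EGFR was at 25.1, 27.2 and 24.9 FPKM with C36 and 23.7, 23.8 and 23.9 FPKM with MinE07 in H1975. In H820 EGFR was lower, at 7.68, 8.19 and 7.80 FPKM with C36 and 7.65, 7.63 and 7.13 FPKM with MinE07. Neither change was called, and the difference was -0.03 (95% interval -0.16 to 0.09). MET, the hepatocyte growth factor receptor, averaged 48.7 and 51.1 FPKM in H1975 and 123 and 131 FPKM in H820, with a difference of 0.02 (95% interval -0.06 to 0.09). ERBB2 had a difference near 0, whose sign changed with the scaling (95% interval -0.13 to 0.12). ERBB3, the kinase-impaired partner that links ERBB dimers to PI3K, rose in H1975 from 8.58, 8.51 and 8.56 FPKM to 10.6, 10.3 and 9.74 FPKM. In H820 ERBB3 was at 2.48, 2.45 and 2.56 FPKM with C36 and 2.32, 2.58 and 2.53 FPKM with MinE07. Its difference of 0.25 (limma adjusted p = 0.0224) was 0.22 and not called with H820 MinE07 libraries 1 and 2 left out (adjusted p = 0.0684), and 0.25 or 0.23 and not called without H1975 C36 library 2 or H820 C36 library 3 (adjusted p = 0.0533 and 0.0512).

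Most genes of a list repressed by PI3K-AKT signalling, among them FOXO targets, rose in H1975. There 10 of 15 were called higher and 2 lower, beside 11.8% and 14.6% of all genes. In H820, 0 were called, beside 0.0558% of all genes. Of the 15, 8 had a called positive difference (SELENOP, PIK3IP1, FBXO32, GABARAPL1, BCL6, CITED2, SOX4 and PINK1, beside 3.66% of all genes) and 0 a negative one. The median change was 0.21 in H1975, 0.03 in H820 and 0.20 for the difference, against -0.02 for all genes. With H820 MinE07 libraries 1 and 2 left out, 6 were called and the median was 0.18. Against vehicle in place of C36, 5 had a called positive and 4 a called negative difference, and the median was 0.04.

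SELENOP (selenoprotein P, a secreted selenium carrier and FOXO target) had the smallest p-value of the named genes. It was at 0.601, 0.611 and 0.628 FPKM with C36 and 2.20, 1.93 and 2.14 FPKM with MinE07 in H1975. In H820 it was an abundant transcript, at 22.0, 19.9 and 22.8 FPKM with C36 and 26.4, 24.4 and 23.5 FPKM with MinE07. Libraries separated in both lines, but only the H1975 change was called, and the difference was 1.02 ± 0.08 (SE, limma adjusted p = 6.86e-05). The H1975 vehicle libraries, at 1.05, 1.16 and 0.992 FPKM, lay between C36 and MinE07, and the difference against vehicle was 0.79. The promoter of SELENOP is shown because it was the only one of the 6 matched called members to hold the FOXO motif GTAAACA. Of the 12 matched members tested, 3 held the motif, and TXNIP and TRIB2 among them were not called. On either strand it was found in 3.41% of all promoters and 2.25% of the 8879 matched genes tested. The stretch lies at chr5:42811901-42811967 on the minus strand (RefSeq, GRCh38.p14), with the motif in capitals.
SELENOP: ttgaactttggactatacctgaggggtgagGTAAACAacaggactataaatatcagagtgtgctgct

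PIK3IP1, an inhibitor of the PI3K catalytic subunit, was at nearly the same level in both lines with C36. In H1975 PIK3IP1 went from 2.26, 2.32 and 2.49 FPKM to 4.97, 4.60 and 4.86 FPKM. In H820 it went from 2.39, 2.63 and 2.69 FPKM to 3.30, 3.10 and 3.17 FPKM. The direction was the same in both, the H820 change of 0.27 was not called (limma adjusted p = 0.097), and the difference was 0.63 ± 0.07 (limma adjusted p = 0.000748). FBXO32 (atrogin-1, a ubiquitin ligase subunit and FOXO target) averaged 16.3 FPKM with MinE07 and 10.8 FPKM with C36 in H1975 against 17.8 and 18.2 FPKM in H820, a difference of 0.60. GABARAPL1, an autophagosome protein, averaged 8.17 and 5.48 FPKM against 13.7 and 13.3 FPKM, a difference of 0.50. PIK3IP1, SELENOP, FBXO32 and GABARAPL1 were also positive against vehicle (0.74, 0.79, 0.45 and 0.27), whereas CITED2, a transcriptional coregulator, was 0.24 against C36 and -0.17 against vehicle.

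DNA replication genes fell in H1975, while most had smaller fitted falls in H820 that were not called. Of 29 tested DNA replication and G1-S genes, 25 were called lower in H1975 and 0 in H820, against 14.6% and 0.0239% of all genes. The difference was called negative at 14 and positive at 0 of them, against 5.19% and 3.66% of all genes, and the fitted value was below 0 at all 29. The medians were -0.21 in H1975 and -0.04 in H820, where 23 of the 29 fitted changes were below 0. Of all genes, 53.4% lay above 0 in H820. With H820 MinE07 libraries 1 and 2 left out the median difference went from -0.16 to -0.21, while the number called went to 6. Fitted changes in H820 were below 0 at 28 of 30 tested mitosis and G2-M genes. Their medians were -0.21 in H1975 and -0.075 in H820. Of the 30, 8 had a called negative difference and 0 a positive one, with a median of -0.15, and 26 were called lower in H1975. The same shares of all genes apply, and 9 mitosis genes had a called negative difference without the 2 H820 libraries.

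UHRF1, which couples DNA methylation to replication, was at 33.6, 35.0 and 34.8 FPKM with C36 and 27.7, 26.1 and 25.3 FPKM with MinE07 in H1975. In H820 UHRF1 was at 5.61, 5.62 and 5.22 FPKM with C36 and 5.17, 5.27 and 5.14 FPKM with MinE07. The H820 groups overlap at 5.22 and 5.27 FPKM, and the difference was -0.31 (limma adjusted p = 0.0057). CDC6, the loader of the replicative helicase, was at 11.8, 12.2 and 11.7 FPKM with C36 and 9.62, 9.37 and 9.17 FPKM with MinE07 in H1975. CDC6 was at 5.93, 6.15 and 6.16 FPKM with C36 and 5.85, 6.03 and 6.05 FPKM with MinE07 in H820, and its difference was -0.31 (limma adjusted p = 0.00217). E2F1, the transcription factor of this programme, averaged 14.8 and 18.2 FPKM in H1975 and 9.50 and 9.76 FPKM in H820, a difference of -0.25 (limma adjusted p = 0.0196). The helicase subunits MCM2 and MCM6 had differences of -0.25 and -0.14, and GINS2, a further helicase component, one of -0.24. Among mitotic genes, AURKB and CDCA8, both members of the chromosomal passenger complex, had differences of -0.30 and -0.31, and CDC20, the activator of the anaphase-promoting complex, one of -0.26. Against vehicle the CDCA8 difference was -0.12 and not called (limma adjusted p = 0.126).

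Promoters of 4 of these replication genes are shown because E2F factors are known to drive them together and because the letters are shared across the set. The E2F motif was searched as TTTCCCGC, TTTCGCGC, TTTGCCGC or TTTGGCGC on either strand, and matches can overlap. It was present in 3.33% of all promoters, in 5.83% of the matched genes tested, in 15 of 25 matched members of the list and in 8 of the 11 matched members that were called. Among all genes with a positive difference it was in 3.61% of 332 matched promoters and among those with a negative difference in 8.74% of 492. The stretches are from RefSeq (GRCh38.p14), 5′ to 3′ on the gene's strand, upstream of its start, with matches in capitals: UHRF1 at chr19:4909457-4909500 on the plus strand, E2F1 at chr20:33686386-33686448, GINS2 at chr16:85688955-85689015 and MCM6 at chr2:135876492-135876625 on the minus strand.
UHRF1: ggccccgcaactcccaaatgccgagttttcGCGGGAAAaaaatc
E2F1: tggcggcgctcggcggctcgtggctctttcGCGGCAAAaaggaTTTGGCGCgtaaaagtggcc
GINS2: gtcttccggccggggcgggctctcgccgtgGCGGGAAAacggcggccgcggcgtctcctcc
MCM6: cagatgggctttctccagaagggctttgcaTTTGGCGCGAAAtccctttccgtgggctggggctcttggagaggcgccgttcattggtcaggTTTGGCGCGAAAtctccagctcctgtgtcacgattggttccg
In MCM6 each capital run holds 1 match on each strand that overlap. UHRF1 and GINS2 share the letters GCGGGAAA, and E2F1 and MCM6 share TTTGGCGC. Binding of E2F was not measured.

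Genes of ribosome biogenesis and glycolysis also fell in H1975, and their called differences were negative. Of 29 tested MYC and ribosome biogenesis genes, 21 were called lower in H1975 (beside 14.6% of all genes) and 0 in H820 (beside 0.0239%). A negative difference was called at 12 (beside 5.19% of all genes) and a positive one at 0, with a median of -0.17, and 11 were negative without H820 MinE07 libraries 1 and 2. ODC1, the first enzyme of polyamine synthesis, was at 52.7, 54.6 and 52.3 FPKM with C36 and 41.2, 42.3 and 42.7 FPKM with MinE07 in H1975. In H820 ODC1 was at 25.9, 27.3 and 26.1 FPKM with C36 and 23.9, 28.3 and 27.3 FPKM with MinE07, so the groups overlap, and the difference was -0.34 (limma adjusted p = 0.0152). NOP16, a ribosome assembly factor, had the same difference of -0.34, and SRM (spermidine synthase) and BOP1 (a ribosome assembly factor) had -0.31 and -0.34.

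Of 26 tested glycolysis and hypoxia genes, 19 were called lower in H1975 (beside 14.6% of all genes) and 0 in H820 (beside 0.0239%). A negative difference was called at 10 (beside 5.19% of all genes) and a positive one at 0, with a median of -0.12. The lactate exporter SLC16A3 averaged 53.1 FPKM with MinE07 and 65.3 FPKM with C36 in H1975 against 30.3 and 30.1 FPKM in H820, a difference of -0.31 (limma adjusted p = 0.00173). PFKFB4, which sets the level of fructose bisphosphate, and the enolase ENO2 both had -0.34, HK2 (hexokinase) -0.20 and VEGFA (a hypoxia-induced angiogenic factor) -0.18. With H820 MinE07 libraries 1 and 2 left out, 3 of the 26 were called, PFKFB4 and ENO2 not among them, and the median was -0.14. Of 27 tested sterol and fatty acid synthesis genes, 5 had a called negative difference (3 without the 2 libraries) and 0 a positive one, a share of 18.5% beside 8.84% of all genes. HMGCS1, which makes the precursor of mevalonate, was at 28.1, 28.6 and 27.7 FPKM with C36 and 27.6, 25.2 and 25.9 FPKM with MinE07 in H1975. In H820 HMGCS1 was at 38.0, 37.3 and 37.7 FPKM with C36 and 41.5, 41.3 and 42.0 FPKM with MinE07. Against C36, libraries separated in opposite directions in the lines, only the H1975 change was called, and the difference was -0.24 (limma adjusted p = 0.00753). The opposite directions did not hold against vehicle, where HMGCS1 changed by -0.27 in H1975 and -0.05 in H820. C36 against vehicle gave -0.17 in H1975 and -0.19 in H820.

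**Figure D3:**
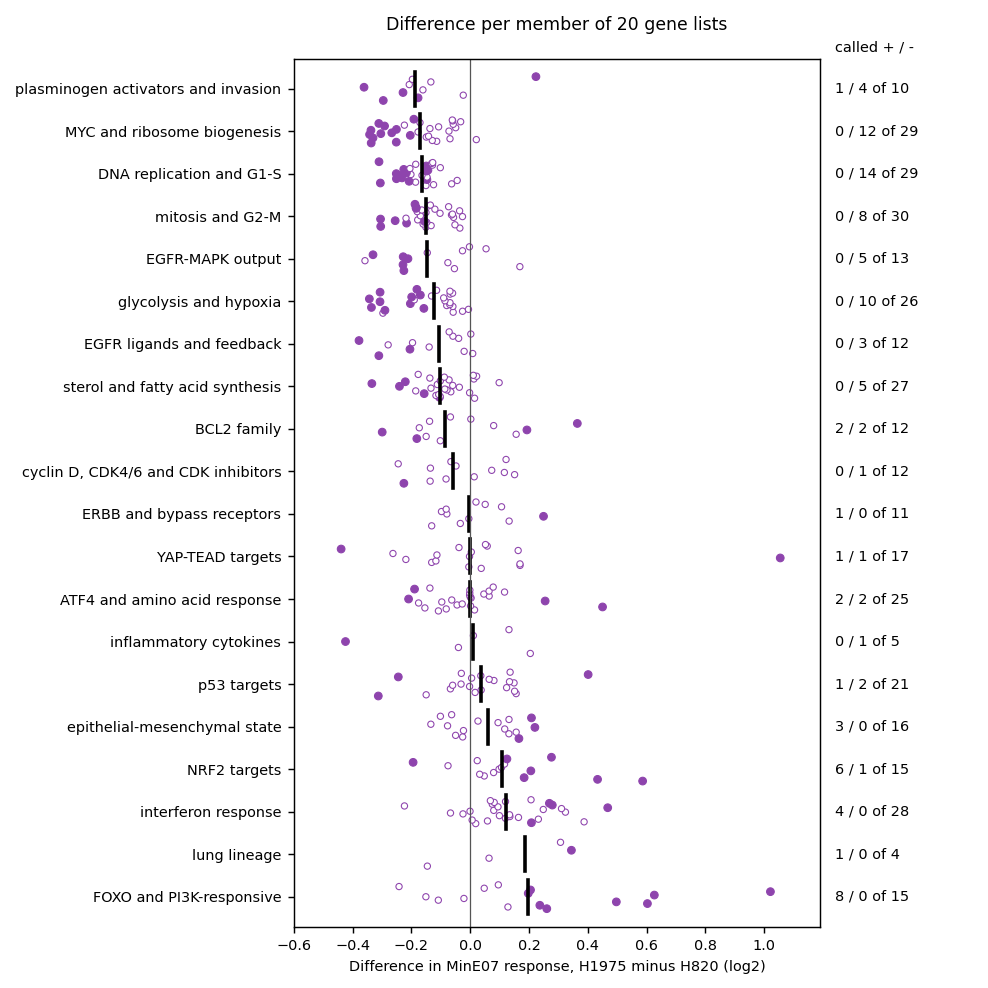
Difference in MinE07 response (H1975 minus H820, log2(FPKM + 0.5)) of each tested member of 20 gene lists, 1 row per list, with called members filled and a bar at the list's median. The FOXO and PI3K list has called members only above 0 (8 of 15), and the replication, mitosis, MYC and glycolysis lists only below 0 (14 of 29, 8 of 30, 12 of 29 and 10 of 26).

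Cell death regulators changed in both directions. Of 12 tested BCL2 family genes, the pro-apoptotic BMF and BCL2L11 had called positive differences and BCL2L1 and BAK1 negative ones, 33.3% beside 8.84% of all genes. Without H820 MinE07 libraries 1 and 2, BMF and BCL2L1 were called, and BCL2L11 and BAK1 were not. BMF, a BH3-only protein, rose in H1975 from 2.93, 2.64 and 3.05 FPKM to 4.29, 3.90 and 4.29 FPKM. In H820 BMF was at 10.1, 10.2 and 10.4 FPKM with C36 and 11.6, 10.8 and 10.7 FPKM with MinE07, separate but not called, and the difference was 0.36 (limma adjusted p = 0.0118). BCL2L1, which encodes the survival protein BCL-XL, fell in H1975 from 47.7, 47.4 and 46.2 FPKM to 40.0, 40.5 and 37.9 FPKM. In H820 BCL2L1 was at 23.9, 25.6 and 24.5 FPKM with C36 and 25.3, 25.5 and 25.5 FPKM with MinE07, and the difference was -0.30 (limma adjusted p = 0.00268). BCL2L11, which encodes BIM, had a difference of 0.19, and BAK1, a pore-forming effector, one of -0.18. Among 21 tested p53 targets TP53INP1 was positive (0.40) and AEN and TNFRSF10B were negative (-0.31 and -0.24). That was a share of 14.3% beside 8.84% of all genes. Without the 2 H820 libraries TNFRSF10B was not called.

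Antioxidant and interferon lists also had mostly positive calls. Of 15 tested NRF2 targets, 6 had a called positive difference (AKR1B10, FTH1, TXNRD1, HMOX1, FTL and TKT) and SRXN1 a negative one, 46.7% beside 8.84% of all genes, with a median of 0.11. Without H820 MinE07 libraries 1 and 2, 4 were positive and 1 negative. FTH1, the ferritin heavy chain, averaged 2548 FPKM with MinE07 and 1999 FPKM with C36 in H1975 and 1635 and 1727 FPKM in H820, a difference of 0.43 (limma adjusted p = 0.00494). AKR1B10, an aldo-keto reductase, averaged 1.68 and 1.11 FPKM in H1975 and 8.87 and 9.86 FPKM in H820, a difference of 0.59 (limma adjusted p = 0.00885). TXNRD1 (thioredoxin reductase) and HMOX1 (haem oxygenase) had differences of 0.28 and 0.21. Of 28 tested interferon response genes, 9 were called higher in H1975 (beside 11.8% of all genes) and 0 in H820 (beside 0.0319%). OAS2, PARP9, SAMD9 and DTX3L had called positive differences (beside 3.66% of all genes) and 0 negative ones, with a median of 0.12, and 3 were positive without the 2 libraries, PARP9 not among them. OAS2, a double-stranded RNA sensor, changed by 0.17 in H1975 and -0.29 in H820, neither of them called, and only the difference of 0.47 was (limma adjusted p = 0.0147).

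In the remaining lists the share called ran from 1 of 12 cyclin D and CDK genes to 5 of 10 plasminogen activator and invasion genes, beside 8.84% of all genes. Of 16 epithelial-mesenchymal genes, GRHL2 (an epithelial transcription factor), CDH1 (E-cadherin) and TGFBI (a matrix protein) were called positive, at 0.22, 0.17 and 0.21. Of 10 plasminogen activator and invasion genes, PLAU (urokinase), ITGA2, MMP14 and LAMB3 were negative and TIMP2, a metalloproteinase inhibitor, positive, and PLAU had the largest of these, -0.36. Of 4 tested lung lineage genes NKX2-1, the lung lineage factor, was called: it averaged 22.4 FPKM with MinE07 and 17.2 FPKM with C36 in H1975 against 30.0 and 29.4 FPKM in H820, a difference of 0.34 (limma adjusted p = 0.00969). IL11, 1 of 5 tested cytokines, was at 8.04, 8.43 and 8.37 FPKM with C36 and 5.26, 5.17 and 5.18 FPKM with MinE07 in H1975. In H820 IL11 was at 1.78, 1.66 and 1.73 FPKM with C36 and 1.41, 1.35 and 1.56 FPKM with MinE07, and the difference was -0.42 (limma adjusted p = 0.00269). Of 25 tested ATF4 and amino acid response genes, CEBPB and NUPR1 were positive and PSAT1 and TRIB3 negative, and the median was near 0. Of 17 YAP-TEAD targets CCN5 was positive and NT5E negative, and of 12 cyclin D and CDK genes CCND1 was called. Without H820 MinE07 libraries 1 and 2, GRHL2, ITGA2, CEBPB and NUPR1 were not called, and the plasminogen list had 1 positive and 3 negative calls.

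The largest positive differences were in genes that rose in H1975 and were not called in H820. CCN5, a secreted matricellular protein, led them. In H1975 it was at 10.3, 10.2 and 9.79 FPKM with C36 and 24.6, 24.7 and 23.5 FPKM with MinE07. In H820 CCN5 was at 1.10, 1.13 and 1.26 FPKM with C36 and 1.45, 1.61 and 1.08 FPKM with MinE07, so the groups overlap, and the difference was 1.05 ± 0.12 (limma adjusted p = 0.000748). NFE2, a basic leucine zipper transcription factor, went from 2.02, 1.60 and 2.20 FPKM to 4.43, 3.72 and 4.21 FPKM in H1975. NFE2 was at 4.65, 4.48 and 4.57 FPKM with C36 and 4.97, 4.80 and 4.76 FPKM with MinE07 in H820, and the difference was 0.85 (limma adjusted p = 0.00171). TNFSF10, the death ligand TRAIL, went from 0.970, 0.696 and 0.890 FPKM to 1.76, 1.61 and 2.26 FPKM in H1975 and stayed between 18.9 and 22.8 FPKM in the H820 libraries. Its difference was 0.77 against C36 (limma adjusted p = 0.0123) and 0.49 against vehicle, where it was not called (adjusted p = 0.061). The pseudogene RPL22P2 and the readthrough transcript INO80B-WBP1 complete the 6, at 0.84 and 0.81, and reads of both can be shared with near-identical genes. These 2 changed by 0.35 and 0.40 in H1975 and by -0.49 and -0.41 in H820, so their differences came from both lines. Against vehicle the differences were 0.81 and 0.28, neither of them called (limma adjusted p = 0.081 and 0.61).

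Among the largest negative differences, TMEM158, a transmembrane protein induced by RAS, fell in H1975 from 26.9, 26.8 and 28.3 FPKM to 15.3, 16.1 and 14.5 FPKM. In H820 TMEM158 was at 1.57, 1.65 and 1.52 FPKM with C36 and 1.42, 1.63 and 1.50 FPKM with MinE07, and the difference was -0.77 ± 0.07 (limma adjusted p = 0.000144). IGFBP4, a secreted binding protein of insulin-like growth factors, fell in H1975 from 21.9, 20.7 and 21.7 FPKM to 12.2, 13.8 and 13.6 FPKM. In H820 IGFBP4 was at 66.2, 65.9 and 66.8 FPKM with C36 and 64.7, 63.3 and 63.7 FPKM with MinE07. Its libraries separated in both lines, but the H820 change of -0.05 was not called, and the difference was -0.63 (limma adjusted p = 0.000144). AMOTL1, an angiomotin-like junction protein, averaged 1.42 FPKM with MinE07 and 2.38 FPKM with C36 in H1975 and 13.1 and 12.3 FPKM in H820, a difference of -0.67. FBXO48, an F-box protein, was at 1.73, 1.92 and 1.45 FPKM with C36 and 1.09, 1.04 and 1.27 FPKM with MinE07 in H1975, and went the other way in H820, from 2.29, 1.95 and 2.38 FPKM to 3.22, 2.91 and 3.32 FPKM. Its difference was -0.86 against C36 and -0.23 against vehicle, where it was not called (adjusted p = 0.57). NPIPA5 had -1.16, but it belongs to a multigene family whose reads cannot be assigned with certainty, and 1 H1975 C36 library was at 2.31 FPKM against 1.12 and 1.20 FPKM in the others. Without that library NPIPA5 did not reach the mean of 1 FPKM, and without H820 MinE07 libraries 1 and 2 it was not called. The pseudogene RPL13P8 had -0.65, or -0.39 and not called against vehicle (limma adjusted p = 0.24), and is uncertain for the same reason.

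**Figure D4:**
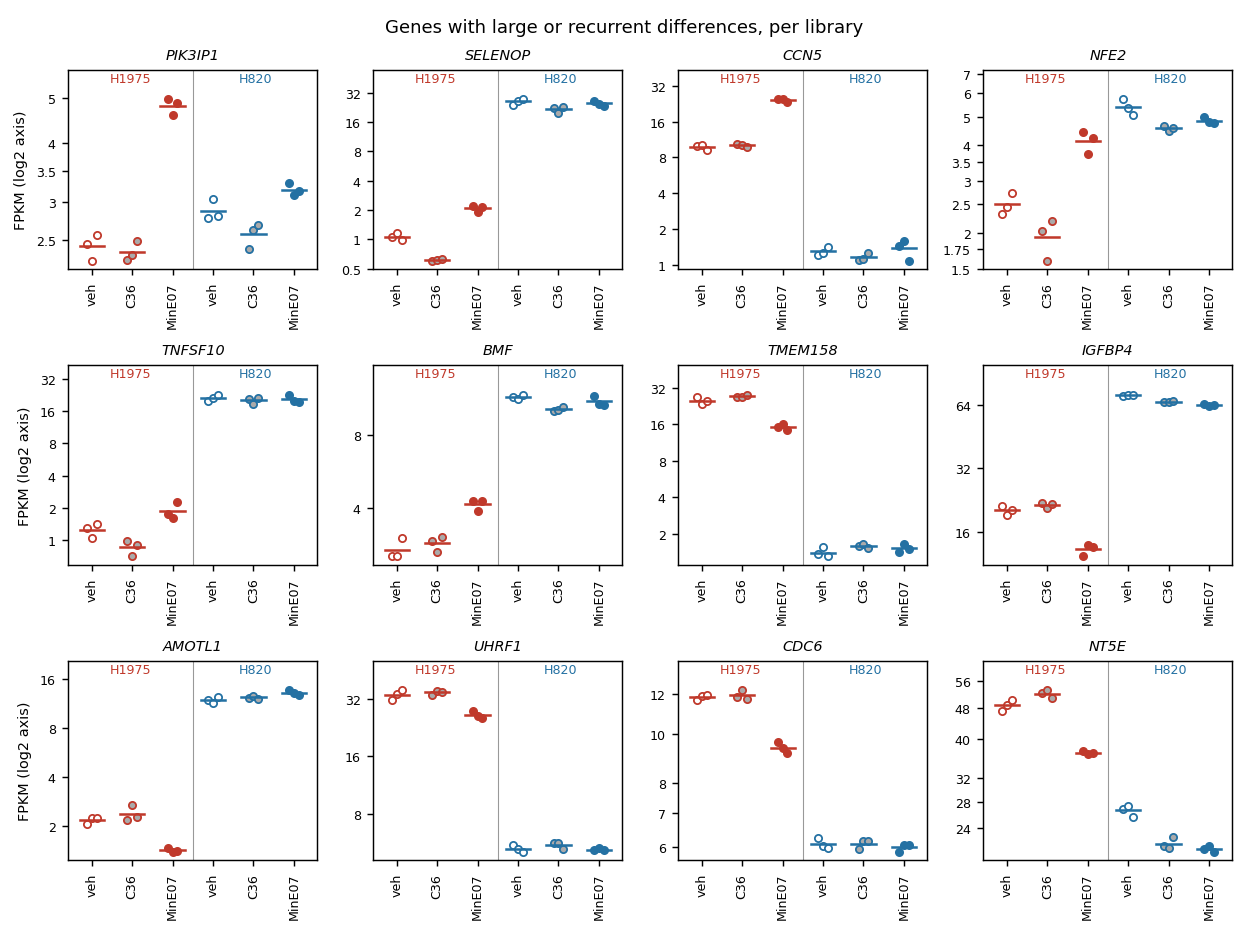
FPKM (log2 axis) of 12 genes with large differences or called list members in every library of H1975 (red) and H820 (blue) with vehicle (open points), C36 (grey) and MinE07 (filled), with a line at each group's mean. In H1975 the MinE07 points lie apart from the C36 points for every gene shown, and in H820 the distance between the 2 groups is smaller.

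Only 5 genes were called in the same direction in both lines, EGR1, CCND1, SYT12, ALDH3B1 and ADGRG1, and 0 in opposite directions. ALDH3B1, an aldehyde dehydrogenase, rose in both: in H1975 from 64.7, 63.2 and 63.5 FPKM to 87.3, 91.6 and 86.3 FPKM. In H820 ALDH3B1 rose from 19.9, 20.6 and 19.9 FPKM to 23.9, 24.0 and 24.8 FPKM. Its rise was larger in H1975 by 0.21 (limma adjusted p = 0.0105), or 0.18 and not called with H820 MinE07 libraries 1 and 2 left out (adjusted p = 0.0673). SYT12, a synaptotagmin, fell by 0.27 in H1975 and by 0.42 in H820, where it was called in 5 of the 12 fits that left out 1 library. ADGRG1, an adhesion G protein-coupled receptor, changed by 0.10 in H1975 and 0.20 in H820. Their differences, 0.15 and -0.10, were not called.

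The genes called in H820 and for the difference but not in H1975 were FAAP100 and a second entry of MDP1. FAAP100, a Fanconi anaemia core complex protein, was at 26.9, 26.3 and 26.0 FPKM with C36 and 32.3, 30.8 and 32.7 FPKM with MinE07 in H820. In H1975 FAAP100 was at 8.04, 7.80 and 7.83 FPKM with C36 and 8.31, 8.16 and 7.87 FPKM with MinE07. The H820 vehicle libraries stood at 30.1, 30.6 and 32.4 FPKM, level with MinE07 and above C36. Its difference was -0.23 against C36 (limma adjusted p = 0.00914) and 0.06 against vehicle, and C36 against vehicle gave 0.29 (adjusted p = 0.0094).

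The choice of control mattered for single genes. Against vehicle the difference in MinE07 response was called at 1478 of 12550 genes (11.8%), 534 positive (4.25%) and 944 negative (7.52%). This comparison shares its MinE07 libraries with the one against C36, so values are set side by side without a test of likeness. C36 against vehicle differed between the lines at 105 of 12522 genes (0.839%), a count that ran from 50 to 334 when single libraries were left out, with 334 reached without H1975 vehicle library 1. Within H820, C36 against vehicle was called at 388 genes (3.10%) and MinE07 against vehicle at 321 (2.56%). Within H1975 the counts were 195 (1.56%) and 3179 (25.3%).

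MYC in H820 is one such gene. The vehicle libraries of H820 were at 73.0, 74.2 and 74.4 FPKM, below every C36 and MinE07 library of that line. Its changes against vehicle in H820 were 0.34 for C36 and 0.34 for MinE07, and in H1975 0.15 and -0.18. The difference for MYC was -0.33 against C36 and -0.52 against vehicle. NT5E, the ectonucleotidase CD73, had a difference of -0.44 against C36 (limma adjusted p = 0.000172) and -0.08 against vehicle (adjusted p = 0.31), and C36 against vehicle gave 0.09 in H1975 and -0.27 in H820. CCND1 (-0.36), CCN5 (1.21), TMEM158 (-0.79), IGFBP4 (-0.45) and PIK3IP1 (0.74) kept their direction against vehicle. Further genes described above were called against C36 and not against vehicle: ERBB3, EREG, E2F1, MCM2, MCM6, GINS2, SLC16A3, VEGFA, BCL2L11, BAK1, TXNRD1, SAMD9, DTX3L, BCL6, SOX4, PINK1, CDH1, LAMB3, TIMP2, TNFRSF10B, PSAT1 and TRIB3. The list medians of MYC and ribosome biogenesis, YAP-TEAD targets and cytokines were lower against vehicle, at -0.27, -0.19 and -0.26, and that of EGFR-MAPK output was nearer 0, at -0.04.

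H3255, whose libraries were not used in the comparison, offered a look at the called genes in a further line with L858R. There 4850 of 13297 genes were called between MinE07 and C36 (36.5%), 16.8% higher and 19.7% lower. Of the 459 genes with a positive difference, 377 were tested in H3255, 186 of them rose (49.3%) and 38 fell. Of the 651 with a negative difference, 623 were tested, 356 fell (57.1%) and 22 rose. In A549 the count was 0 of 13274 genes with limma (0.00%), with 2043 (15.4%) at an unadjusted p under 0.05.

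Some lists had values in H3255 unlike those in H1975, and others went in the same direction. In H3255, 18 of 21 tested EGFR-MAPK output genes were called lower, with a median of -0.59, beside 11 of 13 and -0.33 in H1975. The medians are over unlike members, because those of H1975 also had to pass the filter in H820. Mitosis and G2-M genes were called lower at 30 of 30 in H3255 and 26 of 30 in H1975. Replication genes were called lower at 18 of 30 and 25 of 29. PIK3IP1 and SELENOP rose in H3255 by 0.91 and 0.76, AREG fell by 1.37, PLAU fell by 1.53 and ALDH3B1 rose by 1.57. NKX2-1 rose by 0.35, close to its 0.37 in H1975. The interferon list, positive in the difference between H1975 and H820, had a median of -0.28 in H3255 with 11 of 16 members lower, and the NRF2 list one of -0.11. BCL2L1 fell in H1975 and rose by 0.38 in H3255. No test of the difference between H1975 and H3255 was run here.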

How the data were processed

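RNA was measured in 36 libraries, of which 12 (3 per group) entered the comparison. Per the labels' protocols, polyadenylated RNA was made into stranded libraries and sequenced as read pairs on a NovaSeq. Values were deposited by the authors as FPKM per gene, in a file for each library. The submitters' processing notes name HISAT2, Cuffdiff, GRCh38.p12 and hg38, without roles or settings. Of 68271 entries per file, 1874 without a name and 31 with a repeated name were left out (at most 0.005% of summed FPKM), and 66366 were kept.

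The FPKM values were taken as log2(FPKM + 0.5), with a mean of at least 1 FPKM in each line and values above 0 in all 12 libraries, which left out 66 genes listed at 0 somewhere, 1577 reaching the mean in H1975 only and 1115 in H820 only. Group means were fitted in R 4.3.3 with limma 3.58.1, using its trend and robust options (statmod 1.5.0). The 3 contrasts were each line's change and their difference, two-sided, with Benjamini-Hochberg adjustment over 12553 genes and calls at 0.05. FPKM keep no counts, so no counting interval is given, and p-values measure the spread between these libraries, whose replicate numbers are not stated to be shared between groups. The fits were tested on simulated data. Python 3.11.15, pandas 2.3.3, numpy 2.4.6 and matplotlib 3.10.9 were used for tables and figures.

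Named genes were EGFR, ERBB2, ERBB3 and MET. To these were added the 6 largest positive and 6 largest negative called differences whose libraries separated in at least 1 line, up to 2 called members per list (6 for EGFR-MAPK output), up to 4 genes called in both lines in each direction pattern, and up to 4 called in H820 and for the difference but not in H1975. Other members are named for their list, and ADGRG1, MDP1 and those in the closing observations were chosen after their values were seen. The comparison, the members and the gene lists were chosen with earlier results of these data known, so lists are described by counts and medians with no test. Alternatives covered the pseudocount, filters, scaling, moderation, the replicate block, the libraries fitted, array weights, copies, vehicle as control and single libraries left out. Leaving out H820 MinE07 libraries 1 and 2, leaving out mitochondrial genes with sums made equal, and fitting each line alone were added after seeing the data. Aptamer sequences were not used here, and 1 gene that met the rule is not reported here.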

Additional observations from a re-analysis of the deposited data

Results flagged for a closer look

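The effect of MinE07 against C36 differed between H1975 and H820, by the limma interaction test, at 1110 genes, 50 of which met the rule for named genes. They are given here, 1 excepted, with their difference in log2 change. All were picked out by that test of the difference itself. Leaving out H820 MinE07 libraries 1 and 2 leaves 1 library in that group. Many of the 1110 calls, and some of the 50, were lost there. Groups of 3 libraries were too small for a check of single outlying samples.

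Positive differences, where H1975 stood above H820, were found at CCN5 (1.05), SELENOP (1.02), NFE2 (0.85), RPL22P2 (0.84), INO80B-WBP1 (0.81), TNFSF10 (0.77), PIK3IP1 (0.63), AKR1B10 (0.59), OAS2 (0.47), CEBPB (0.45), FTH1 (0.43) and TP53INP1 (0.40). Smaller ones were found at BMF (0.36), NKX2-1 (0.34), PARP9 (0.28), ERBB3 (0.25), NUPR1 (0.25), GRHL2 (0.22), TGFBI (0.21) and ALDH3B1 (0.21).

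Negative differences were found at NPIPA5 (-1.16), FBXO48 (-0.86), TMEM158 (-0.77), AMOTL1 (-0.67), RPL13P8 (-0.65), IGFBP4 (-0.63), NT5E (-0.44), IL11 (-0.42), NRG1 (-0.38) and PLAU (-0.36). Values of -0.34 were found at ENO2, NOP16, ODC1 and PFKFB4, -0.33 at MYC, -0.31 at AEN, AREG, CDC6, CDCA8 and UHRF1, and -0.30 at AURKB, BCL2L1 and ITGA2. The smallest were HMGCS1 (-0.24), CCND1 (-0.23), EPHA2 (-0.23), FAAP100 (-0.23), IER3 (-0.23) and IER2 (-0.21).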

How the results depend on the processing

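Depth per library is known only in relative terms, each group holds 3 libraries, and 1 line stands for each genotype, which limits what the values can show. Of the 1110 genes called for the difference, 0 changed sign under the settings that kept C36 as the control. The count was 498 (257 positive, 241 negative) with no filter on the mean, where 42614 genes were tested, and 729 (257 and 472) without H820 MinE07 libraries 1 and 2. The replicate numbers did not pair the samples (correlations of same-numbered deviations within lines from -0.22 to 0.05), and a replicate block within each line gave 613 genes (255 and 358), 2 in H820, 725 for the difference against vehicle and 39 for C36 against vehicle. Leaving out single libraries gave 598 to 1353 genes: 598 without H820 MinE07 library 2, 616 without H1975 C36 library 2, 625 without H820 MinE07 library 3, 664 without H820 C36 library 1 and 692 without H1975 MinE07 library 3. The cause was not tested. The corresponding ranges were 2394 to 3362 in H1975, 4 to 10 in H820, 934 to 1658 against vehicle, 50 to 334 for C36 against vehicle, 3659 to 4580 in H3255 and 0 to 2 in A549. The 7 genes of H820 were 3 at a mean of at least 5 FPKM (fewer genes tested), 12 in the fit of 18 libraries and 2 on its own 6 libraries.

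List medians moved by more than their spread with vehicle as the control for EGFR-MAPK output (-0.0404), ERBB and bypass receptors (-0.0877), FOXO and PI3K (0.0423), mitosis (-0.101), cytokines (-0.261), YAP-TEAD (-0.186), ATF4 (-0.0309), MYC (-0.270), epithelial-mesenchymal state (-0.0162) and lung lineage (0.269). They moved under quantile normalization for cyclin D (-0.0108), ATF4 (0.0336) and plasminogen activators (-0.148), and without H820 MinE07 libraries 1 and 2 for EGFR-MAPK output (-0.204) and G1-S (-0.206).

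Among the named genes called for the difference, FAAP100 changed sign against vehicle (0.06), as did CITED2 (-0.17) of the FOXO list. With C36 as the control, signs changed only at named genes not called. EGFR gave 8.86e-05 under quantile normalization and 0.0278 without H820 MinE07 libraries 1 and 2 (single libraries left out, -0.0647 to 0.00641). ERBB2 gave 0.0133 by medians of ratios, 0.0243 by quantiles and 0.0145 with mitochondrial genes left out (-0.0538 to 0.0293). DUSP5 gave 0.0293 with a pseudocount of 0.1 and 0.0560 without the 2 H820 libraries, SPRED1 0.0958 without them (-0.0876 to 0.00985). SPRY2 gave 8.23e-05 with a pseudocount of 0.1, 0.0151 by medians of ratios, 0.0159 by quantiles, 0.0151 with mitochondrial genes left out and 0.00959 without the 2 libraries (-0.0435 to 0.0378). Among called named results, counting alternatives one by one, 1381 values stayed called and 129 did not. Single libraries decided some: CEBPB was called in 4 of 12 such fits, IER3 in 1, TP53INP1 in 4, PARP9 in 5, RPL13P8 in 6, NUPR1 in 7, INO80B-WBP1 in 9 and ERBB3 in 10.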

Other observations

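Some called genes had libraries that separated in opposite directions in the lines. MinE07 libraries lay all above C36 in H1975 and all below in H820 at 51 called genes, beside 78 of all 12553 tested. The reverse held at 109 called genes, beside 138 of all tested. Libraries separated in the same direction in both lines at 417 genes (higher) and 401 genes (lower). A call for the difference favours genes with opposite directions, so the called counts are not a separate result. The genes with opposite directions named here were chosen after their values were seen. UCA1, a long non-coding RNA known from epithelial cancers, averaged 72.8 FPKM with MinE07 and 59.3 FPKM with C36 in H1975 against 0.973 and 1.22 FPKM in H820, a difference of 0.52 (limma adjusted p = 0.003). SPHK1, the kinase that makes sphingosine 1-phosphate, averaged 9.00 and 12.4 FPKM in H1975 and 2.54 and 2.22 FPKM in H820. Its difference was -0.61 against C36 and -0.43 against vehicle. NPM3, a nucleolar chaperone, averaged 18.6 and 21.1 FPKM in H1975 and 11.2 and 9.71 FPKM in H820, a difference of -0.37 against C36 and -0.23 against vehicle, where it was not called (adjusted p = 0.089). The H820 changes of these genes were not called on their own.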
